A study of Mus musculus with 24 samples.

Results

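The comparison described here set 4 arrays of lung RNA from mice that breathed diesel exhaust (DE) at 2000 ug/m3 against 4 arrays from mice that breathed filtered air, all of them given saline. These are 8 of the 24 arrays of the study, chosen by their titles alone, and they were compared across all 22626 non-control probe sets of an Affymetrix mouse array. Exposure lasted 4 h/day for 5 days in both groups, and saline was given for 3 days. The other 16 arrays, also 4 per group, came from mice at 500 ug/m3 with saline and from mice at 0, 500 and 2000 ug/m3 given 100 ug ovalbumin (OVA) for 3 days in place of saline. Total RNA came from frozen lung by a Qiagen column kit, and 2 ug of it went into each biotin-labelled cRNA. No strain, sex, age, genotype or lobe was given, nor whether the 4 replicates of a group were separate animals, so the p-values below measure the spread between these samples.

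Diesel exhaust is a mixture of carbon particles, adsorbed polycyclic aromatic hydrocarbons and reactive gases. In the lung it is known for drawing neutrophils into the airways, for an acute phase response in which epithelium and resident cells secrete antimicrobial and metal-binding proteins, and for engaging the aryl hydrocarbon receptor and the oxidant sensor NRF2. The polymeric immunoglobulin receptor, made by airway epithelium, carries dimeric IgA from the tissue into the airway lining fluid.

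The array medians of the 8 arrays lay between 198 and 222 signal units, and the correlation of log2 signal between arrays was 0.9295 to 0.971 within the 2 groups and 0.9385 to 0.9654 across them. Of 6 measures of array quality, none differed between the groups at the exact permutation test (two-sided, p 0.3143 to 0.8286, smallest possible 0.0286, BH-adjusted 0.7429 to 0.8286). The mean log2 ratio of 3' to 5' signal of Gapdh and actin, a measure of RNA integrity and cRNA length, was 0.98 to 2.90 in air and 1.30 to 2.04 in the exposed arrays. Lung markers were high and level. Sftpc, surfactant protein C of alveolar type 2 cells, read 14.89 in air and 14.91 in the exposed group on the log2 scale, and Scgb1a1, the secretoglobin of club cells, read 14.62 and 14.69.

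After exposure to 2000 ug/m3, 20 probe sets of 18 genes rose against air and none fell. Those with the lowest p were probe sets of Cd177, a surface glycoprotein of neutrophils, of Pigr, the IgA transporter, and of Cp, the copper-carrying ferroxidase ceruloplasmin, and Saa3, the acute phase serum amyloid A made in tissues, rose by the largest factor. Of the 13575 probe sets bright enough to test, the 20 that rose are 0.147%, and the 0 that fell are 0% (limma, Benjamini-Hochberg adjusted p under 0.05). At an unadjusted p under 0.05 in limma there were 539 higher and 268 lower probe sets, where about 679 in all would be met without any effect. In 19 of the 20, the 4 exposed arrays all lay above the 4 air arrays, as they did in 2.7% of all tested probe sets (1.61% lay apart the other way), and Fyttd1 was the one that overlapped. With each of the 8315 tested genes represented by its brightest tested probe set, 9 genes rose (0.108%) and 0 fell (0%). By the same representation 271 genes (3.26%) were higher and 181 (2.18%) lower at unadjusted p under 0.05, and the groups did not overlap in 187 higher genes (2.25%) and 140 lower genes (1.68%). The median difference over all tested genes was -0.01 on the log2 scale, 47.75% lay above 0, and the median standard error (SE) was 0.1842.

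The count of 20 turned on single arrays. Without air replicate 4 it was 106, and without any other single array of the 8 it was 4 to 8. Of the 20, 4 probe sets kept their call without each array in turn: Cd177, both of Pigr, and 1 of Cp.

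**Figure D1:**
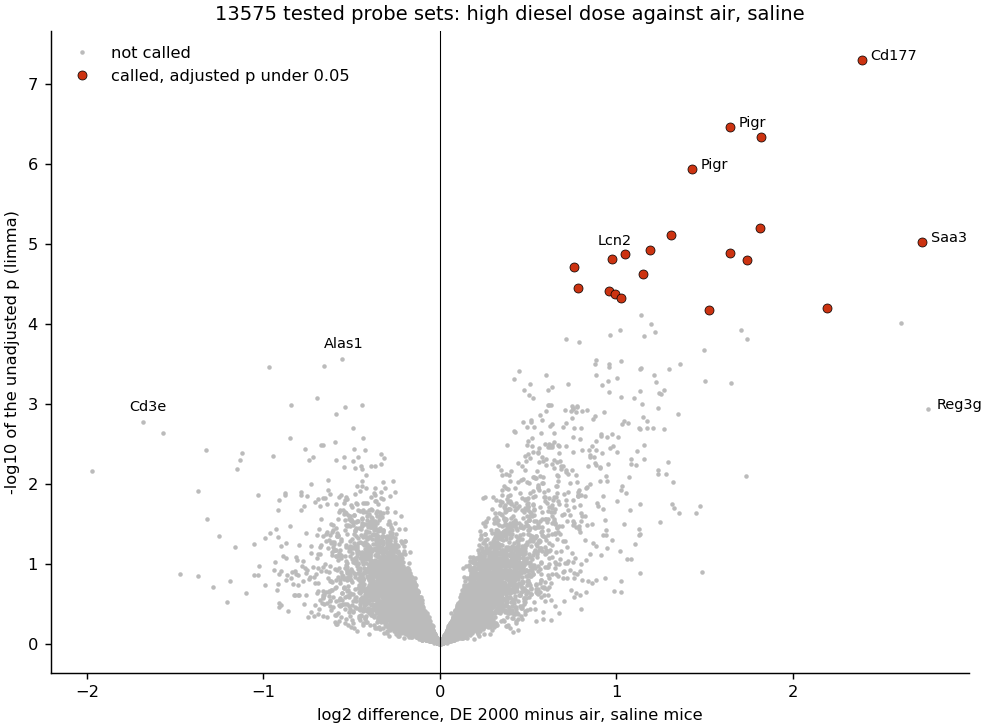
Each point is 1 of 13575 tested probe sets, placed by its log2 difference between 2000 ug/m3 diesel exhaust and air in saline mice (horizontal axis) and by the negative log10 of its unadjusted limma p (vertical axis). The 20 called probe sets, in red, all lie to the right of 0, with Cd177 highest, while Cd3e and Alas1 on the left are not called.

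Of the 20 probe sets, 7 of 6 genes were also higher than in saline mice at 500 ug/m3 (limma adjusted p 5.117e-05 to 0.02926 for 2000 against 500 ug/m3), and in these 7 the low dose differed from air by -0.38 to 0.09 on the log2 scale. They are Cd177, both probe sets of Pigr, Saa3, Lcn2, D17H6S56E-5 and 1 probe set of Cp, and all but D17H6S56E-5 stand in the acute phase or the neutrophil list.

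Cd177 read 155, 133, 182 and 96.6 signal units in the 4 air arrays and 538, 610, 789 and 1054 in the 4 exposed arrays. The lowest exposed array lay well above the highest air array. The difference was 2.39 ± 0.30 (log2, SE) or 5.24-fold, with a limma adjusted p of 0.000683. At 500 ug/m3 Cd177 differed from air by -0.38. Its mean log2 signal over the 24 arrays was 7.62, against a limit for testing of 7.11. It passed that limit through the 2000 ug/m3 groups, at 9.5 with saline and 8.68 with OVA, its other group means being 6.73 to 7.11.

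Pigr was measured by 2 probe sets that both rose. The brighter one read 1168, 1034, 1208 and 960 in air and 2910, 3419, 2952 and 2487 after exposure, and its groups were apart on every array. Its difference was 1.43 ± 0.22 or 2.69-fold (limma adjusted p 0.00395), and it was called under all 21 alternative settings tried. The other read 456, 563, 472 and 521 in air against 1247, 1764, 1746 and 1564, a difference of 1.64 ± 0.23 or 3.12-fold (limma adjusted p 0.00205). Jchain, the joining chain that lets IgA bind this receptor, differed by 0.03 ± 0.18 over the same arrays. Of 8 tested genes listed for IgA transport, 2 lay above 0, with a list median of -0.09. Pigr was the one that rose, where 0.108% of all tested genes did.

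Saa3 read 186, 180, 232 and 111 in air and 1111, 1490, 956 and 1066 after exposure. All 4 exposed arrays were several times above the highest air array. The difference was 2.73 ± 0.48 or 6.66-fold (limma adjusted p 0.018), and the low dose differed from air by 0.09. Leaving out 1 array moved the adjusted p of Saa3 as high as 0.0925.

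Lcn2 encodes lipocalin 2, which binds bacterial siderophores and is made by neutrophils and by stimulated epithelium. It read 954, 1066, 1236 and 719 in air and 1994, 1802, 1905 and 1963 after exposure, where the exposed arrays lay close together above all air arrays. The difference was 0.97 ± 0.18 or 1.96-fold (limma adjusted p 0.018), and the adjusted p reached 0.1117 with 1 array left out.

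D17H6S56E-5 read 986, 992, 1205 and 1030 in air and 1736, 1751, 1773 and 1843 after exposure, again without overlap. It rose by 0.76 ± 0.14 or 1.69-fold (limma adjusted p 0.0203), and its other probe set differed by 1.01 ± 0.30 with an unadjusted p of 0.00262.

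Cp was measured by 7 tested probe sets, of which 2 rose and 5 did not pass the test. The called one that also stood above the low dose read 833, 1050, 876 and 990 in air and 1411, 2263, 1901 and 1779 after exposure, a difference of 0.96 ± 0.19 (limma adjusted p 0.0328). The brightest Cp probe set read 2278, 2950, 2399 and 1682 in air against 4266, 5496, 5860 and 4651. There the groups were apart by 1.14 ± 0.27, with a limma adjusted p of 0.1128, and the low dose differed from air by -0.13. The 4 remaining uncalled probe sets of Cp differed by 0.42, 0.56, 0.23 and 0.29.

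**Figure D2:**
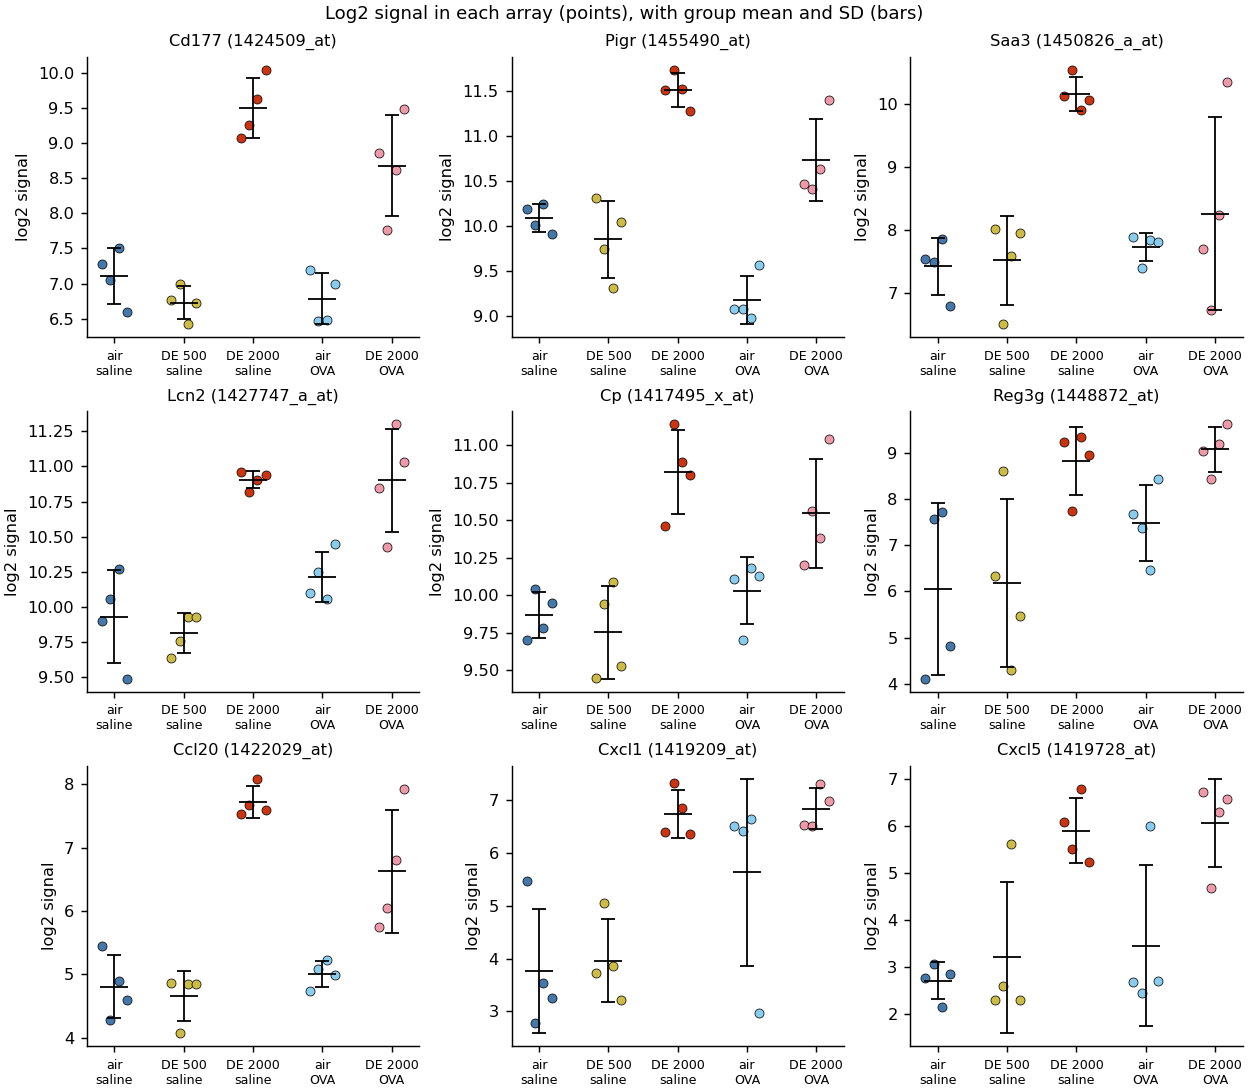
Log2 signal (vertical axes) of 9 probe sets in each array, as points, with the mean and SD of each group of 4 as bars, for air, 500 and 2000 ug/m3 with saline and for air and 2000 ug/m3 with OVA. In the 9 panels all 4 arrays of the 2000 ug/m3 saline group lie above the 4 air saline arrays, and the Saa3 panel shows 1 high array in the 2000 ug/m3 OVA group. Reg3g was not called, and Ccl20, Cxcl1 and Cxcl5 lay below the signal limit for testing.

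Promoter sequences are shown for 4 genes that rose and for the chemokine Ccl20 described further on, as examples picked after their values were seen from the genes that stood above both air and the low dose. Each is the 250 bases before the RefSeq transcription start on GRCm38.p6, written 5′ to 3′ on the gene's strand. Capitals mark matches to GGGANNNNCC, a short form of the NF-kB site, or to TTGCNNAA, a short form of the C/EBP site, searched on both strands. Saa3 lies at chr7:46715677-46715926 (minus strand), Lcn2 at chr2:32387740-32387989 (minus), Pigr at chr1:130826434-130826683 (plus), Cd177 at chr7:24760312-24760561 (minus) and Ccl20 at chr1:83116516-83116765 (plus).
Saa3: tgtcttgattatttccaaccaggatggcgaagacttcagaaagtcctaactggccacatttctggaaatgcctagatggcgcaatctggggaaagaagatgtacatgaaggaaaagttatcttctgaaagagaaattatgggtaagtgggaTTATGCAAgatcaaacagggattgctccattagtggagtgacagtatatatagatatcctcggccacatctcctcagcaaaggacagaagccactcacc
Lcn2: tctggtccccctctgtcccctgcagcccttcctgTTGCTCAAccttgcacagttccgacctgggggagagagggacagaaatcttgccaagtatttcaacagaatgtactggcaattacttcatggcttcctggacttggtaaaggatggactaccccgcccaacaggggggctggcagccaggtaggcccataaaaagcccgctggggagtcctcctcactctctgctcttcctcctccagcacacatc
Pigr: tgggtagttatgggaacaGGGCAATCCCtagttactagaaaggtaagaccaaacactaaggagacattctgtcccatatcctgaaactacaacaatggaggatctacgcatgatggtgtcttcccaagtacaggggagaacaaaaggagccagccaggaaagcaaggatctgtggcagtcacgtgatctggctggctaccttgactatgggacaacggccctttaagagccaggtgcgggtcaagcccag
Cd177: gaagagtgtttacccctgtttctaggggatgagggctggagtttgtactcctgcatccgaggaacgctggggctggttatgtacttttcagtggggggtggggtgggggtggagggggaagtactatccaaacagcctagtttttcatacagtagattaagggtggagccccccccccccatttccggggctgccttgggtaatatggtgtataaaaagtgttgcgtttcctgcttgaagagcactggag
Ccl20: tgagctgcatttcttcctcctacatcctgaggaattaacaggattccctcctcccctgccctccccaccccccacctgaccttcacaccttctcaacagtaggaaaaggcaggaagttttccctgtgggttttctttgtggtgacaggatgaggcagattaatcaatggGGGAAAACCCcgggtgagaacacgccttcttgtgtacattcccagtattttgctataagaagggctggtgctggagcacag
Of these windows, Saa3 and Lcn2 each held 1 C/EBP match, whose first base lay 99 and 216 bases before the start. Pigr and Ccl20 each held 1 NF-kB match, 232 and 81 bases before the start, and Cd177 held neither. Of 32851 RefSeq promoters of the same length, 17.6% held the NF-kB letters and 9.56% the C/EBP letters. Of the windows not shown, that of D17H6S56E-5 held 1 NF-kB match, that of Cxcl1 held 3 that partly overlap, and of the 2 starts of Cp one held 1 match to each motif and the other none. A match is a description of the letters only, and no binding was measured here.

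The gene lists used here were chosen with earlier results of these data known. Their counts beside the shares of all genes are descriptions, not tests. Among acute phase genes, all 14 tested members of a list of 29 lay above 0, with a median of 0.59 on the log2 scale against -0.01 over all tested genes. Saa3, Lcn2 and Pigr rose, 3 of 14 where 0.108% of all genes did, 9 had an unadjusted p under 0.05 in the direction of exposure where 3.26% of all genes had, and in 7 the groups did not overlap, where 2.25% did. Another 13 listed genes were on the array and too dim to test. The summed signal of the list was 17870 to 22020 in the air arrays and 29790 to 33110 in the exposed arrays. Reg3g, an antibacterial lectin of epithelium, read 17.3, 189, 213 and 28.5 in air and 605, 215, 653 and 496 after exposure. The groups touched without overlapping, air was spread widely, and the difference of 2.76 ± 0.75 missed the threshold (limma adjusted p 0.1877). Its mean log2 signal was 6.06 in air, under the limit for testing of 7.11, and 8.82 after exposure. Reg3g thus passed that limit through groups in which it was high, and it counts among the 9 and the 7. Cfb, factor B of the alternative complement pathway, read 213, 168, 212 and 271 in air and 364, 385, 404 and 524 after exposure, a difference of 0.96 ± 0.25 (limma adjusted p 0.1516). Steap4, a metalloreductase, differed by 0.72 ± 0.24, the lipopolysaccharide co-receptor Cd14 by 0.47 ± 0.13 and haptoglobin, Hp, by 0.37 ± 0.15, with limma adjusted p of 0.3948, 0.2177 and 0.6326.

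Neutrophil genes lay in the same direction. All 13 tested members of a list of 28 were above 0, with a median of 0.52 (0.43 without air replicate 4), and 2 rose, Cd177 and Lcn2, where 0.108% of all tested genes did. Cd177 passed the limit for testing only through the 2000 ug/m3 groups, and another 10 listed genes on the array were too dim to test. At unadjusted p under 0.05, 7 of 13 were higher (3.26% of all genes), in 4 the groups did not overlap (2.25% of all genes), and the summed signal was 6720 to 10260 in air and 11690 to 17080 after exposure. S100a9, a subunit of the abundant neutrophil protein calprotectin, read 1354, 1843, 2079 and 1126 in air and 3434, 5776, 2487 and 2700 after exposure. All exposed arrays lay above air, replicate 2 furthest, and the difference was 1.13 ± 0.32 (limma adjusted p 0.2319). Its partner S100a8 read 1329, 1550, 1198 and 867 against 2613, 4485, 1665 and 1762, a difference of 1.0 ± 0.31 (limma adjusted p 0.3204). Pglyrp1, a granule protein that binds peptidoglycan, differed by 1.03 ± 0.29, the growth factor receptor Csf3r by 0.89 ± 0.35 and the gelatinase Mmp9 by 0.52 ± 0.16, with limma adjusted p of 0.2229, 0.6235 and 0.3011. Other tested members moved less. Ngp, Mmp8 and Ltf, also of granules, differed by 0.09, 0.09 and 0.33, and Fpr2, Hdc and Clec4d by 0.08, 0.11 and 0.27. All of these overlapped, with an unadjusted limma p of 0.1444 or more. Among genes of neutrophil granule proteins, Mpo, Elane, Prtn3 and Camp were too dim to test, differed by 0.73, -0.39, -0.27 and 0.30 and overlapped between the groups. In whole lung, more cells of a type and more RNA per cell cannot be told apart.

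A list of genes that epithelium is known to raise in response to IL-17 and IL-22 had 11 of 13 tested members above 0 and a median of 0.72. It also holds parts of the IL-17 receptor path, Il17ra, Il17rc and Traf3ip2, which differed by 0.12, -0.10 and 0.12. Lcn2, Saa3 and Pigr rose, 3 of 13 against 0.108% of all genes, 7 were higher at unadjusted p under 0.05 against 3.26%, and 6 lay apart between the groups against 2.25%. Reg3g, whose air mean lay under the limit for testing, is among the 7 and the 6. This list shares 5 tested members with the acute phase list and 3 with the neutrophil list, and the latter lists share 2, so the counts are not separate. The medians of the acute phase, neutrophil and IL-17 lists were -0.09, -0.12 and 0.05 at 500 ug/m3, from the same air arrays. Il17a itself was too dim to test and differed by 0.10.

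Of 21 chemokine and chemokine receptor genes with a mean signal below the limit for testing, 138.3 signal units, 12 lay above 0, and in 3, Ccl20, Cxcl1 and Cxcl5, every exposed array lay above every air array, with none apart the other way. Among all tested genes 2.25% lay apart as higher and 1.68% as lower. The share over all probe sets below the limit was not worked out, so how unusual 3 of 21 is cannot be said. Ccl20, the ligand of the receptor CCR6, read 43.5, 19.4, 30.0 and 24.0 in air and 184, 206, 273 and 194 after exposure. Every exposed array was several times above every air array. In the alternative without a filter on signal, the difference was 2.92 ± 0.39 (limma adjusted p 0.0017) and the low dose differed from air by -0.15. Cxcl1 read 44.2, 6.93, 11.6 and 9.58 in air and 84.0, 159, 115 and 82.4 after exposure, and without the filter it missed the threshold (limma adjusted p 0.1442). Cxcl5 read 6.76, 8.34, 4.41 and 7.17 against 68.2, 45.5, 111 and 37.8, and missed it too (limma adjusted p 0.1358). Both are ligands of the neutrophil receptor CXCR2, and as all their signals but 1 lay below the limit, no fold is given. Cxcl2, another such ligand, differed by 0.19 and overlapped. Tff2, a trefoil peptide secreted with mucus, read 87.4, 88.2, 149 and 112 in air against 340, 163, 334 and 390 (1.45 ± 0.37, limma adjusted p 0.1831 without the filter), and the epithelial cytokine Tslp read 113, 102, 91.0 and 120 against 163, 155, 157 and 161 (0.58 ± 0.21, adjusted p 0.5331). Tff2 and Tslp are named with their values known, from many genes below the limit. How unusual they are among those cannot be said either.

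Of the classical inflammatory cytokines, Il1b read 327, 485, 476 and 283 in air and 809, 679, 557 and 562 after exposure. It did not overlap between the groups and differed by 0.75 ± 0.22 (limma adjusted p 0.27). Tnf and Il6 were too dim to test, overlapped and differed by -0.05 and -0.09. Of 19 tested cytokine and receptor genes, 12 lay above 0, with a median of 0.09 and none called. The 12 tested genes of the CXC chemokine list had a median of 0.01, and Cxcl15, a chemokine abundant in lung epithelium, differed by -0.30 ± 0.13.

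The other 13 called probe sets, of 13 genes, rose against air but not against 500 ug/m3. In these the low dose differed from air by 0.36 to 1.95, and the 2 doses differed from each other with a limma adjusted p of 0.8152 to 0.9987. They are Cp by its probe set with the lowest p, Rab22a, Fam160b1, Zfp36l1, Endod1, Spred1, Myo10, Pgap2, Tbx4, Tmod3, Nfic, Hdlbp and Fyttd1. Rab22a, a GTPase of endosome traffic, read 182, 153, 239 and 652 in air and 893, 896, 966 and 858 after exposure, a rise of 1.81 ± 0.31 (limma adjusted p 0.0172). Air replicate 4 stood nearer to the exposed arrays than to the other air arrays. Hdlbp, the RNA-binding protein vigilin, read 44.2, 96.3, 50.5 and 328 in air and 422, 397, 438 and 418 after exposure, a rise of 2.19 ± 0.45 (limma adjusted p 0.0447). Cp by this probe set read 234, 350, 272 and 733 in air and 1145, 1333, 1281 and 1299 after exposure, a rise of 1.82 ± 0.26 (limma adjusted p 0.00205). In all 13 of these probe sets air replicate 4 was the highest air array, while it was so in 0 of the other 7 called probe sets and in 24.6% of all tested probe sets. It was also the highest in 62% of the 539 probe sets that were higher at unadjusted p under 0.05, and in 19.4% of the 268 that were lower.

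Tmod3, a cap of actin filaments, rose by 1.0 ± 0.20, and Endod1, a predicted nuclease, by 1.64 ± 0.30, with limma adjusted p of 0.0337 and 0.018. Zfp36l1, which promotes decay of AU-rich mRNA, rose by 1.19 ± 0.21, and Spred1, a brake on RAS signalling, by 1.05 ± 0.19, both at limma adjusted p 0.018. Tbx4, a transcription factor of lung mesenchyme, rose by 0.78 ± 0.15, and Nfic, a transcription factor of the nuclear factor I family, by 1.03 ± 0.21, at limma adjusted p 0.032 and 0.0354. The rises of Myo10, an unconventional myosin of filopodia, and of Pgap2, which remodels GPI anchors, were 1.74 ± 0.32 and 1.15 ± 0.22. Myo10 passed the limit for testing through the exposed saline groups, at log2 8.0 and 8.61, its other group means being 6.73 to 7.0. Those of Fam160b1 and of Fyttd1, an mRNA export factor, were 1.31 ± 0.23 and 1.53 ± 0.31.

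Other probe sets of these genes often read differently. Rab22a's 2 other tested probe sets differed by -0.08 and 0.13, those of Tmod3 by -0.33 and 0.24, those of Spred1 by -0.07 and 0.07, and 3 of the 4 others of Hdlbp by -0.10, 0.01 and 0.13, where the fourth read 1.12. The other tested probe sets of Myo10 read 0.57 and -0.87, those of Pgap2 0.14 and -0.45, and those of Nfic -0.08 and 0.50. That of Fam160b1 read -0.12, that of Fyttd1 -0.26 and that of Zfp36l1 0.38, and those of Endod1 read 0.41 and 0.51. Counted over all called genes, 13 had 27 other tested probe sets, of which 18 lay above 0, 6 were higher at unadjusted p under 0.05 and 0 lower. Centred on the mean of the 24 arrays, the median of the 13 probe sets was -0.76, -0.41, -1.0 and 0.44 in air with saline, 0.41 to 0.84 at 500 ug/m3 with saline and 0.92 to 1.10 at 2000 ug/m3 with saline, but -0.94 to -0.15 in all 12 OVA arrays. The B1 repeat control signal was also higher in the saline arrays, at log2 12.08 to 13.83 against 10.85 to 12.43 in the OVA arrays, and in air replicate 4 it lay at 12.83, between those of the other air arrays. With this signal or the 3' to 5' ratio as a covariate all 13 probe sets, and the other 7, kept their call. In the fit of only the air and 2000 ug/m3 saline arrays, 2 of the 13 kept it, Cp and Fam160b1, while all of the other 7 did (limma adjusted p up to 0.1797 and 0.0382). The covariate fits adjust for those measures alone, and the cause of the pattern in the 13 probe sets was not tested.

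**Figure D3:**
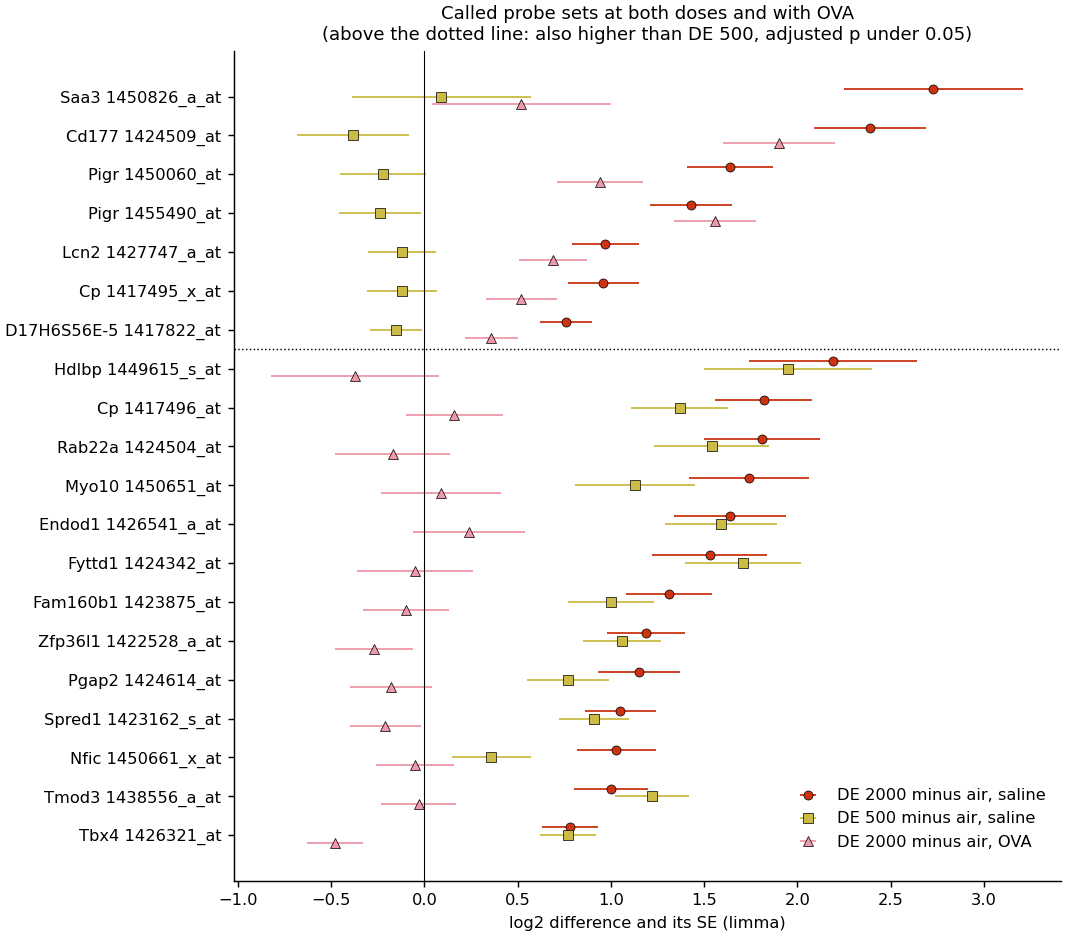
Log2 differences with SE (horizontal axis) of the 20 called probe sets for 2000 ug/m3 minus air in saline, 500 ug/m3 minus air in saline, and 2000 ug/m3 minus air with OVA. Above the dotted line are the 7 probe sets that also stood above 500 ug/m3; there the low dose lies between -0.38 and 0.09, while below the line it lies between 0.36 and 1.95, and both saline differences share the air arrays.

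The same dose was measured against air in mice given OVA, with 4 other arrays per group. Called there were 3 probe sets as higher (0.0221%) and 0 as lower (0%), and at unadjusted p under 0.05 in limma 1103 (8.13%), of which 499 (3.68%) were higher. The 3 were Cd177, the brighter Pigr probe set and one of Polr2j, a subunit of RNA polymerase, which differed by 0.22 ± 0.12 in saline and is named after its values were seen. Between 2000 and 500 ug/m3 in saline 7 probe sets were called higher (0.0516%) and 0 lower (0%), and 725 (5.34%) had an unadjusted p under 0.05, of which 409 (3.01%) were higher. For the difference between the saline and the OVA effect, 0 probe sets passed in either direction (0%), with 829 (6.11%) at unadjusted p under 0.05, of which 594 (4.38%) had the greater value in saline. The 3' to 5' ratio was 0.10 to 4.38 in the 12 saline arrays, and in the OVA arrays it was -0.13 to 0.20 except in DE 2000 OVA replicate 4, at 2.02. Among the saline arrays, only replicate 3 at 500 ug/m3, at 0.10, lay within -0.13 to 0.20, so the ratio went largely with saline against OVA. For the difference of the effects, 1 probe set passed with the ratio as a covariate and 181 with the B1 repeat control signal (138 higher, 43 lower). The part of these measures in the difference was not otherwise tested.

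Cd177 differed between 2000 ug/m3 and air by 1.90 ± 0.30 with OVA (limma adjusted p 0.0134, and 0.0632 without DE 2000 OVA replicate 4) beside 2.39 in saline, and the difference of the effects was 0.49 ± 0.43 (adjusted p 0.9392). Pigr by its brighter probe set differed by 1.56 ± 0.22 with OVA (limma adjusted p 0.00385) beside 1.43 in saline, the difference of the effects being -0.13 ± 0.31. For Saa3 the exposed OVA arrays were uneven. With OVA its log2 signal was 7.88, 7.4, 7.84 and 7.81 in air and 7.69, 6.73, 8.24 and 10.35 at 2000 ug/m3, so 1 of 4 exposed arrays stood far above the rest. That array was DE 2000 OVA replicate 4, whose 3' to 5' ratio of 2.02 and B1 signal of 12.43 were the highest of the OVA arrays. What part these had in the Saa3 values was not tested. The OVA difference of Saa3 was 0.52 ± 0.48, and without that array -0.18 ± 0.36. The difference of its effects was 2.21 ± 0.68 (limma adjusted p 0.4834), and 2.91 ± 0.49 without that array (adjusted p 0.05525), on neither occasion past the threshold. Lcn2 differed by 0.69 ± 0.18 with OVA and Ccl20, without the filter, by 1.63, with limma adjusted p of 0.4917 and 0.4307. Across the 7 probe sets above the low dose, the OVA difference was 0.36 to 1.90 and all 7 lay above 0, and across the other 13 it was -0.48 to 0.24 with 3 above 0. The medians of the acute phase, neutrophil and IL-17 lists were 0.35, 0.16 and 0.23 with OVA.

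**Figure D4:**
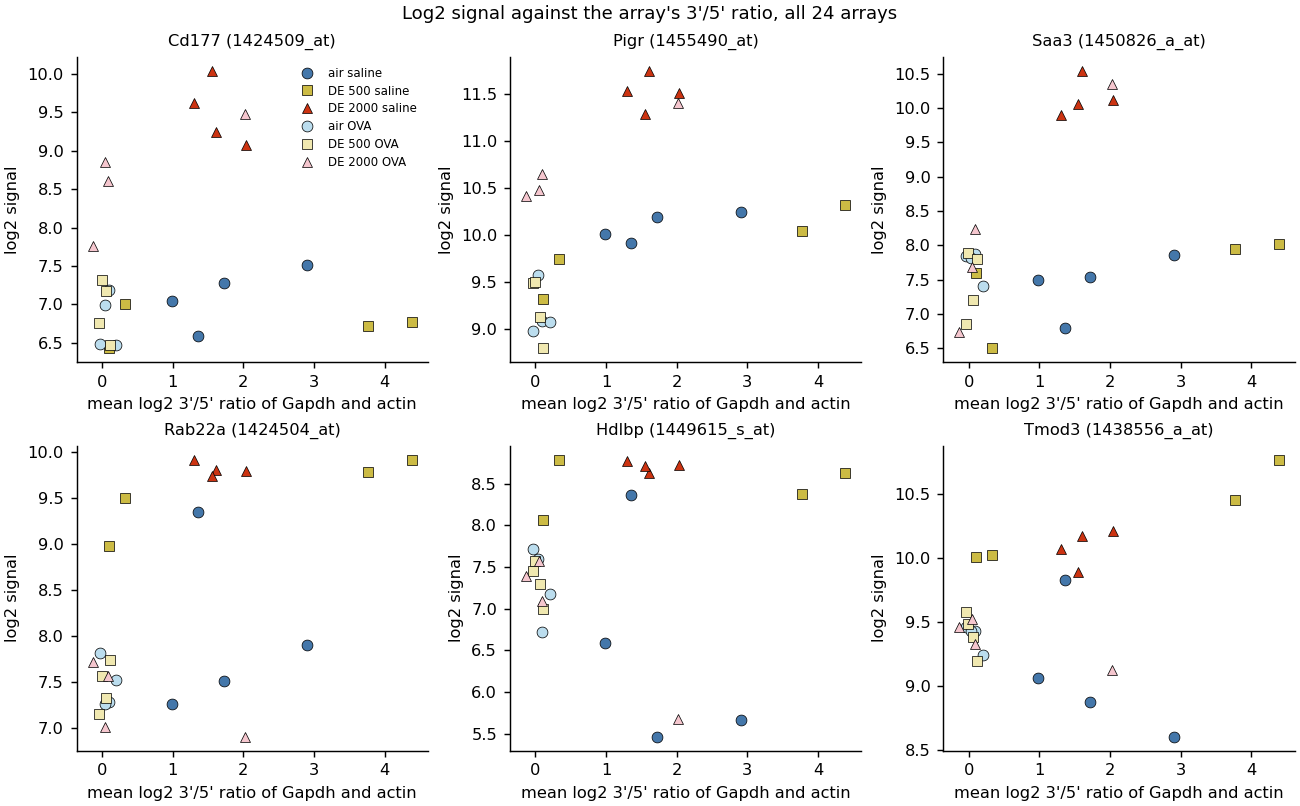
Log2 signal (vertical axes) against the mean log2 3' to 5' ratio of Gapdh and actin (horizontal axes) for 6 called probe sets in all 24 arrays, marked by group. In the upper row (Cd177, Pigr, Saa3) the 2000 ug/m3 saline arrays stand above the other saline arrays at like ratios, and in the lower row (Rab22a, Hdlbp, Tmod3) the 500 ug/m3 saline arrays, at ratios from 0.10 to 4.38, lie beside them.

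Below the threshold, the uncalled genes of lowest p without overlap between the groups were, on the higher side, Ifitm1, Cp by its brightest probe set, Nectin3, Tpp2, Sh3glb1, Rlf, Eif2ak2, Xrn2, Sppl2b, Sdc4, Cfb and Plet1, with limma adjusted p of 0.0697 to 0.1594. Ifitm1, an interferon-induced membrane protein, read 2082, 1750, 2207 and 2308 in air and 3356, 2638, 3602 and 4192 after exposure, or 0.71 ± 0.16 higher. Sdc4, a cell surface proteoglycan, read 1012, 885, 1299 and 2130 in air and 2741, 2293, 3164 and 2883, or 1.13 ± 0.29. Eif2ak2, the kinase PKR that senses double-stranded RNA, differed by 0.92 ± 0.23, Plet1, a surface protein of airway progenitors, by 0.51 ± 0.13, and the adhesion molecule Nectin3 by 0.45 ± 0.11. Air replicate 4 was the highest air array in 11 of these 12. Retnla, a secreted protein of alternatively activated macrophages and epithelium, read 1220, 1452, 2264 and 1144 in air and 2566, 2133, 3897 and 3120 after exposure. Its groups overlapped by 1 air array, and its difference was 0.96 ± 0.21 (limma adjusted p 0.06898).

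On the lower side no gene passed the test, though 28 probe sets did with array weights, 13 with the 3' to 5' ratio as a covariate and 2 without the 500 ug/m3 saline arrays. The 12 with the lowest p and no overlap were Alas1, Slc23a2, Cd3e, Ak1, Pros1, Ddx42, Six5, Copb2, Gps2, Nup107, Tmem128 and Ptprm (limma adjusted p 0.1115 to 0.3721). With array weights Alas1, Slc23a2, Ak1, Pros1, Ddx42 and Ptprm were called lower, Alas1 also with the ratio covariate. Alas1, the first enzyme of heme synthesis, read 4197, 4063, 3239 and 4065 in air and 2396, 2562, 2562 and 3072 after exposure, a difference of -0.55 ± 0.13. Slc23a2, a vitamin C transporter, read 1667, 1689, 1403 and 1783 against 1301, 1056, 1297 and 1171, a difference of -0.44 ± 0.12. Cd3e, a chain of the T cell receptor complex, read 385, 328, 308 and 306 in air and 178, 48.1, 108 and 122 after exposure, a difference of -1.68 ± 0.47 (limma adjusted p 0.2177). The companion chains Cd3d and Cd3g differed by 0.11 ± 0.37 and 0.07 ± 0.29, and the T cell list had 4 of 7 tested genes above 0 and a median of 0.07. Ak1, adenylate kinase, differed by -0.49 ± 0.14, Pros1, the anticoagulant protein S, by -0.44 ± 0.13, and the phosphatase Ptprm by -0.33 ± 0.11.

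Genes listed for the aryl hydrocarbon receptor lay mostly below 0, and none passed the test. Besides targets, the list holds Ahr itself and Arnt, which differed by 0.0 and -0.23. Cyp1a1, the P450 that this receptor induces, read 276, 235, 246 and 323 in air and 206, 170, 199 and 250 after exposure. The groups overlapped, the exposed arrays on the lower side, and the difference was -0.39 ± 0.28 (limma adjusted p 1). Cyp1b1 differed by -0.07 ± 0.20, and that value changed sign when air replicate 4 or DE 2000 replicate 3 was left out (0.01 and 0.13). Tiparp differed by -0.39 ± 0.17, and of 8 tested genes of the list 2 lay above 0, with a median of -0.11 and none called. Ahrr, the receptor's repressor, was too dim to test and differed by -0.50.

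Genes listed as NRF2 targets, a list that also holds Nfe2l2 and Keap1, stood near the background of all genes. Of 29 tested, 16 lay above 0, with a median of 0.07. At unadjusted p under 0.05, 2 were higher (3.26% of all genes) and none lower (2.18%), and none was called. Gclc, the catalytic subunit of glutathione synthesis, read 1137, 1218, 911 and 1581 in air and 1797, 1720, 1943 and 1849 after exposure. It was apart between the groups by 0.62 ± 0.19 (limma adjusted p 0.2974). The aldo-keto reductase Akr1b8 differed by 0.40 ± 0.16, and heme oxygenase, Hmox1, at 80.9, 173, 203 and 163 in air against 260, 170, 130 and 266, by 0.43 ± 0.47. Nqo1 was too dim to test and differed by -0.30, and the metallothioneins Mt1 and Mt2 differed by -0.35 ± 0.26 and -0.38 ± 0.22.

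Genes responsive to glucocorticoid were mostly on the lower side. Of 23 tested, 5 lay above 0, with a median of -0.23 (-0.10 without air replicate 4). Lcn2 was the one called, as higher, where 0.108% of all tested genes were. Dusp1, a phosphatase of MAP kinases, differed by -0.75 ± 0.28, the kinase Sgk1 by -0.39 ± 0.15 and Errfi1, a brake on EGF receptor, by -0.53 ± 0.23. Each had an unadjusted p under 0.05, as 2.18% of all genes had on the lower side, and none was called. The list's median was -0.22 at 500 ug/m3 and -0.19 with OVA. Immediate early genes did not move one way, with 11 of 19 above 0 and a median of 0.06. Junb, at 547, 493, 422 and 473 in air and 890, 881, 631 and 627 after exposure, differed by 0.63 ± 0.17 without overlap (limma adjusted p 0.186), and Klf6 by 0.38 ± 0.12. Clock genes had 4 of 17 above 0 and a median of -0.14.

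Interferon-stimulated genes had 10 of 28 above 0 and a median of -0.05, with Ifitm1 and Eif2ak2 the members of lowest p. Extracellular matrix genes had 14 of 49 above 0 and a median of -0.11. At unadjusted p under 0.05, 6 were lower (2.18% of all genes), among them the collagen Col5a2 at -0.44 ± 0.15. None of either list was called. Heart muscle genes, a sign of cardiac tissue in a lung sample, had 4 of 23 above 0, with summed signals of 28170 to 37680 in air and 15120 to 44980 after exposure.

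**Figure D5:**
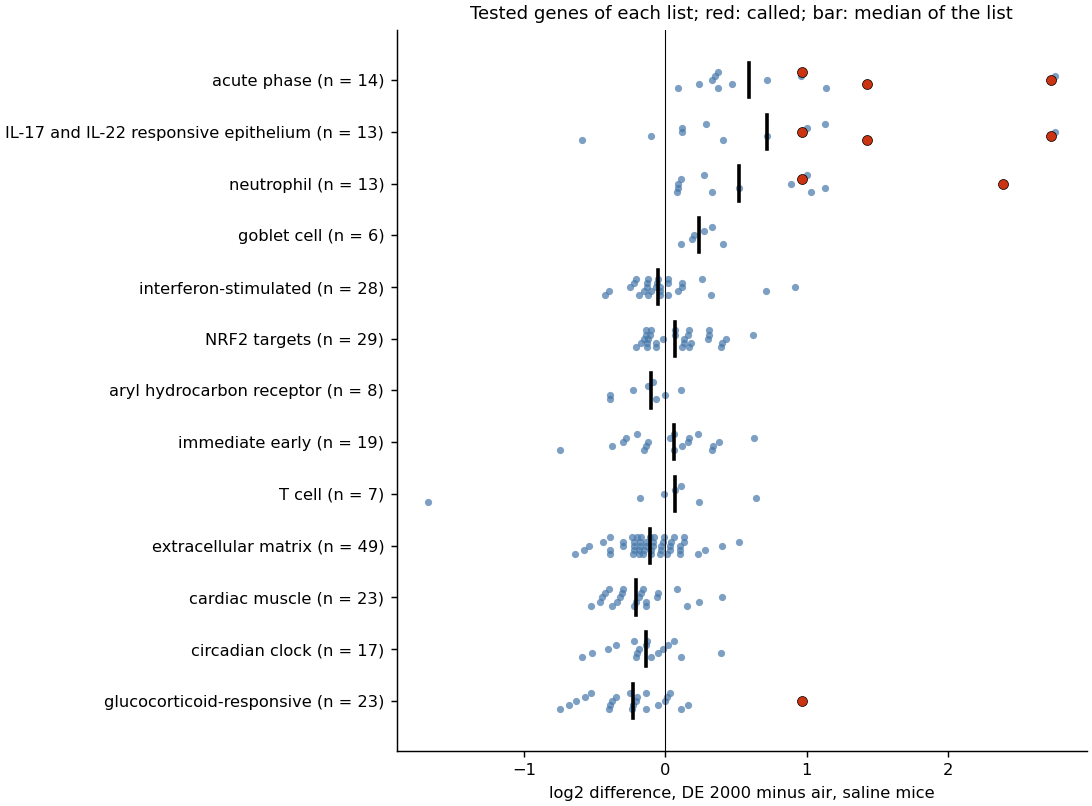
Log2 difference between 2000 ug/m3 and air in saline mice (horizontal axis) of every tested gene of 13 lists, 1 point per gene, with called genes in red and the list's median as a bar. The acute phase, IL-17 and IL-22, and neutrophil lists have medians of 0.59, 0.72 and 0.52, and the glucocorticoid list has a median of -0.23.

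Markers of resident cells lay near 0. Alveolar type 2 genes had 11 of 23 above 0 and a median of -0.01, club cell genes 9 of 17 and a median of 0.07, and alveolar macrophage genes 7 of 17 and a median of -0.03. Alveolar type 1 genes had 4 of 10 above 0, a median of -0.05 and summed signals of 57430 to 63970 in air and 52270 to 56940 after exposure, and their caveolin Cav1 differed by -0.37 ± 0.12 (limma adjusted p 0.3759). Goblet cell genes had 6 of 6 above 0, with a median of 0.23 and none called, the gel-forming mucin Muc5b at 0.41 ± 0.26 and the membrane mucin Muc1 at 0.27 ± 0.16. Muc5ac was too dim to test and differed by -0.25. B cell genes had 6 of 8 above 0 and a median of 0.15. Red cell genes had 3 of 5 above 0 and a median of 0.33. At unadjusted p under 0.05, 1 was higher (3.26% of all genes), while none lay apart between the groups and none was called. Their summed signal was 5698 to 7675 in air and 7788 to 8487 after exposure, a sum in which the brightest genes weigh most. Whether blood in the samples had a part in the neutrophil values was not tested. The 6 eosinophil genes on the array were all too dim to test.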

How the data were processed

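Lung RNA of 24 samples in 6 groups of 4 was measured on 1-colour Affymetrix arrays. The deposited values are linear intensities, 1 per probe set for each array, which the authors made with MAS5 per the submitters' processing notes (version not given in the sources used here); arrays had been scaled to a trimmed mean (2% off each end) of 500.1 to 500.2. Their number limits the precision.

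Of 22690 probe sets, 64 controls were set aside. Log2 intensities were taken without a pseudocount, and the 13575 probe sets with a mean log2 above 7.11 (the 40th percentile) were tested, 12488 of them naming 1 gene by the platform annotation. All 24 arrays entered 1 linear model of the 6 group means (limma 3.58.1 under R 4.3.3, with lmFit, contrasts.fit and a trended eBayes, two-sided). Its p-values were adjusted by Benjamini-Hochberg (BH) over all tested probe sets and called at 0.05. Tables and plots used Python 3.11.15, pandas 2.3.3, numpy 2.4.6 and matplotlib 3.10.9. The fit was tested on simulated data. A gene is represented by its brightest tested probe set.

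Named are every called gene, the 12 uncalled genes of lowest p in each direction without overlap, and members of fixed lists by p or role. These members and the gene lists were chosen with earlier results of these data known. Alternatives were 19 planned settings and, after seeing the data, 3 more.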

Additional observations from a re-analysis of the deposited data

Results flagged for a closer look

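In 6 of 166 groups of 4 checked (air and 2000 ug/m3 with saline, 83 probe sets named in the text), 1 array stood apart from the other 3 by Dixon's criterion on the gap as a share of the group's range. Chance flags about 1 in 20 groups, here about 8.3. All 6 arrays were low on the log2 scale. Csf3r, the neutrophil growth factor receptor, read 7.95 in DE 2000 replicate 4 against 8.77 to 8.84 in the other exposed arrays. Nup107, a nuclear pore subunit, read 5.22 in DE 2000 replicate 1 against 7.28 to 7.65, and its difference from air of -1.13 ± 0.37 includes that array. Sgk1 read 10.36 in DE 2000 replicate 2 against 10.66 to 10.69. Among air arrays, replicate 3 read 11.66 for Alas1 against 11.99 to 12.04 and 9.73 for Tiparp against 10.28 to 10.34, and replicate 4 read 11.88 for the mucin Muc1 against 12.27 to 12.35. None of these 6 genes was called.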

How the results depend on the processing

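The count of 20 called probe sets at 2000 ug/m3 in saline, all higher, lay within 1.5 times of itself under quantile normalization (27), median scaling (17), no filter (18), a 60th percentile filter (14), a pseudocount of 47.04 (24), no trend (19), the replicate number as a block (16) and without the 500 ug/m3 saline arrays (27, of which 25 higher and 2 lower). Same-numbered arrays did not deviate together (correlations 0.08, 0.13, -0.1 and -0.06), so the numbers were not taken as pairs. The count was 12 in the fit of only the 2 groups compared, of which 9 were among the 20, 9 with 1 probe set per gene (fewer probe sets are tested), 138 with array weights (110 higher, 28 lower), 63 with the 3' to 5' ratio (50 higher, 13 lower) and 38, all higher, with the B1 signal as a covariate; in the last 3 all 20 kept their call. Single arrays left out gave 4 to 106, the 106 being without air replicate 4. The cause was not tested for these settings. With OVA the count of 3 became 0 with only the groups compared, 971 with the B1 covariate (387 higher, 584 lower) and 2 without DE 2000 OVA replicate 4. The count of 7 against 500 ug/m3 became 207 with the 3' to 5' ratio, mostly lower (47 higher, 160 lower), and 12 with B1 as a covariate. The count of 0 for saline against OVA became 1 with array weights, 1 with 1 probe set per gene, 1 with the 3' to 5' ratio, 181 with B1 (138 higher, 43 lower), and 0 to 64 with single arrays left out (64 without air replicate 4).

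Of the 78 tested probe sets followed, 51 had a value in all 21 settings and 27 in 19 or 20 of them, and 74 kept their sign wherever they had one. The 4 that did not lay near 0. Cyp1b1 ranged from -0.22 to 0.13 with single arrays left out, above 0 without air replicate 4 (0.01) or DE 2000 replicate 3 (0.13). Scgb1a1 ranged from -0.0024 without air replicate 1 to 0.20. Sftpc read -0.02 under quantile normalization and with B1, and -0.04, -0.03 and -0.01 without air replicates 1 and 2 and DE 2000 replicate 1, with a highest value of 0.13. Jchain read -0.02 with array weights, and -0.06, -0.01 and -0.05 without air replicate 3 and DE 2000 replicates 1 and 4, with a highest value of 0.16. Of genes not called, 25 were called under at least 1 alternative, 19 higher and 6 lower. Signals below the filter limit what can be said of cytokines and chemokines.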
